A study of Homo sapiens with 20 samples.

Results

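The ParaHox genes CDX1, CDX2, PDX1, GSX1 and GSX2 were followed through the chromatin contacts that Poised Enhancer Capture Hi-C recorded at them. The method digests fixed chromatin, ligates ends that lie close together in the nucleus and enriches ligation products at chosen fragments, the baits. Contacts were taken as members where both ends lay on the same chromosome and the bait or the other end overlapped the body of 1 of the 5 genes widened by 1 kb on each side. This gave 168 of the 182303 contacts listed within chromosomes, out of 766138 listed in all from 28903 baits. GSX1, PDX1 and CDX2 form a cluster on chromosome 13 and had 124 contacts together, GSX2 on chromosome 4 had 38, and CDX1 on chromosome 5 had 6. Membership used positions only, not scores.

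The 10 conditions had 2 libraries each. H9, a human primed embryonic stem cell line, was grown without feeders in mTeSR-E8. Definitive endoderm (DE) and neuroectoderm (NE) were both made from the human line HNES1 once it had spent 14 days in transition. DE was induced in CDM2 medium with Activin A, CHIR99021, FGF2, PI-103, BMP4 and heparin, followed by Activin A, PI-103, FGF2, LDN193189 and heparin. NE was induced in N2B27 with A8301 and LDN193189 over 10 days and sorted for cells with CD56 and without EpCAM. ROCK inhibitor was given at plating in both. The transition itself was sampled in naive HNES1 cells, kept on mouse feeder cells in N2B27 with PD0325901, LIF, Gö6983 and XAV939, and at days 1, 3, 5, 7, 10 and 14 after the switch to feeder-free N2B27 with XAV939 alone. Each cell state comes from 1 line, and in the comparison of H9 with day 14 the line and the medium differ together. No RNA was measured in these files, so the named cell states could not be checked against marker genes.

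Each condition has a single interaction score per contact that pools both libraries. It is a CHiCAGO score, which grows as ligation of 2 fragments exceeds what their distance and the assay's noise would give, and a contact was counted as called at 5 or above. No spread between replicates, and so no test between conditions, could be had, and every difference below is a description of pooled values. Every listed contact within chromosomes reached 5.00 in at least 1 condition, so the shares below refer to contacts that were called somewhere. Wilson 95% intervals cover counting error only, and contacts that share a bait or an other end are not independent. Read depth is not known. Over all contacts within chromosomes, 13% were called in H9, 16.2% in DE and 17.9% in NE. For the transition the share was 10.0% in naive cells, 10.1% on day 1, 12.4% on day 3, 11.7% on day 5, 10.2% on day 7, 10.3% on day 10 and 11.2% on day 14.

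ParaHox genes encode homeodomain transcription factors and are the evolutionary sisters of the Hox genes. They fall into the GSX, PDX and CDX classes, and GSX1, PDX1 and CDX2 still stand side by side in vertebrates. In mice GSX1 and GSX2 pattern the ventral forebrain and spinal cord, PDX1 is needed for the pancreas and duodenum, and the CDX genes pattern the posterior body and the intestine. CDX2 also acts in trophectoderm, the outer layer of the blastocyst. In pluripotent cells such developmental genes are classic targets of Polycomb repression, which can bring distant Polycomb-bound regions into contact.

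In the RefSeq gene table (GRCh38.p14), GSX1 lies at chr13:27792483-27794768, PDX1 at chr13:27920000-27926313 and CDX2 at chr13:27960918-27969315. The gap between GSX1 and PDX1 is 125 kb and that between PDX1 and CDX2 34.6 kb. GSX2 lies at chr4:54100163-54102498 and CDX1 at chr5:150166778-150184558. GSX1 had 4 baits, PDX1 1, CDX2 6, CDX1 1 and GSX2 3. The RefSeq promoters of CDX2 and GSX2 lie within baits (chr13:27967615-27969891 and chr4:54099435-54101330). That of GSX1 lies in a fragment recorded as an other end (chr13:27791627-27793728). These 3 promoters, running from 250 bases before the start to 50 after it, are shown because contacts of their fragments carry several of the results. The promoter of PDGFRA is shown because GSX2 baits met its fragment in mid and late transition. The sequences come from RefSeq (GRCh38.p14), and capitals mark the core homeodomain motif TAAT on either strand.
GSX1 promoter, chr13:27792233-27792532, plus strand: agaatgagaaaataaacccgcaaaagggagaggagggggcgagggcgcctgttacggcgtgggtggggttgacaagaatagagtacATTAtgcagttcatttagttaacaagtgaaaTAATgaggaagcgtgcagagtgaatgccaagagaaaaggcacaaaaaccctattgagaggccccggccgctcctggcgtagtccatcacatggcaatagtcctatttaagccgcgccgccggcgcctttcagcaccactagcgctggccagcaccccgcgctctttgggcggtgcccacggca
CDX2 promoter, chr13:27969266-27969565, minus strand: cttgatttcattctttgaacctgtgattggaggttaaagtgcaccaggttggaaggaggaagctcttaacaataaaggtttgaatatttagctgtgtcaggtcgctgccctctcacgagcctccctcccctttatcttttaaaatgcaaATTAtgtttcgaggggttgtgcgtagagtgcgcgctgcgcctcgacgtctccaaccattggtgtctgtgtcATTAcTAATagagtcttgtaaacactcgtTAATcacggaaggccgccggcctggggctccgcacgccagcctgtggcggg
GSX2 promoter, chr4:54099913-54100212, plus strand: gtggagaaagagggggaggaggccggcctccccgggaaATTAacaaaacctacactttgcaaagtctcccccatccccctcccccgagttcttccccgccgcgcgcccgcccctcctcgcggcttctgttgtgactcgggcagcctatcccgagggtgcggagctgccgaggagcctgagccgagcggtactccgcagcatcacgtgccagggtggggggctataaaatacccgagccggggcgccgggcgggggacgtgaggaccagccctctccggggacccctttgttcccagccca
PDGFRA promoter, chr4:54229043-54229342, plus strand: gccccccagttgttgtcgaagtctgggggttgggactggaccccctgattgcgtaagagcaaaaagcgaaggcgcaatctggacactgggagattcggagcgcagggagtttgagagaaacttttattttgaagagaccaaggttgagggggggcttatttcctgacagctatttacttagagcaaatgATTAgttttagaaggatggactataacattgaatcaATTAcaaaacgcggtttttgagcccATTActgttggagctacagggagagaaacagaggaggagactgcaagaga

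The motif TAAT, counted on both strands, occurs 4 times in the CDX2 promoter, 2 times in that of GSX1, 1 time in that of GSX2 and 3 times in the PDGFRA promoter shown. At least 1 copy is found in 50.2% of the 35116 RefSeq promoters of the same length, so a match alone is common. The GSX2 promoter holds 25 CG dinucleotides, GSX1 19, CDX2 16 and the PDGFRA promoter shown 8, against a median of 14 over all promoters. A second RefSeq promoter of PDGFRA (chr4:54233710-54234009) has 32 CG dinucleotides and no TAAT.

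The comparison of day 14 with naive cells asks how contacts at these genes differ between the ends of the transition. Feeder cells, inhibitors and days in culture differ here together with the cell state. The chromosome 13 cluster had 24 called contacts at day 14, against 8 in naive cells, out of 124 listed. That is 19.4% at day 14 (interval 13.4 to 27.2) and 6.45% in naive cells (3.31 to 12.2), and over all contacts the shares were 11.2% and 10.0%. No contact of the cluster was called in both, and over all contacts within chromosomes only 1243 of 182303 were. Thus 24 were called at day 14 alone, where 10.6% of all contacts within chromosomes were, and 8 in naive cells alone, where 9.34% were. The mean score over the 124 contacts was 2.11 at day 14 and 1.19 in naive cells, while over all contacts within chromosomes it was 1.66 at day 14 and 1.53 in naive cells.

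CDX2, the trophectoderm and hindgut factor, had the largest difference of the 3 genes with bodies widened by 1 kb. It had 17 called contacts at day 14, against 6 in naive cells. PDX1, the pancreas factor, had 7 at day 14, against 0 in naive cells, and GSX1, the forebrain factor, had 4 at day 14, against 2 in naive cells. A contact that joins 2 of these genes counts for each. Of the 7 PDX1 calls at day 14, 5 fell on 1 fragment in PDX1, described below, which took 13 of its 22 listed contacts. With bodies widened by 5 kb the difference was 18 for GSX1, 12 for CDX2 and 9 for PDX1, so GSX1 then led. Of the 14258 protein-coding genes with a contact, 29.0% had more called contacts at day 14 than in naive cells and 25.5% had fewer. A difference at least as large as the 11 of CDX2 was found at 59 genes (0.414%), CDX2 included. One as large as the 7 of PDX1 was found at 181 genes (1.27%), and one as large as the 2 of GSX1 at 1848 genes. CDX2 has many contacts in all, 108 calls summed over the 10 conditions against a median of 6 per linked gene, which leaves room for a large difference.

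Outside the cluster the numbers were close. GSX2 had 6 called contacts at day 14, against 5 in naive cells, with none in common, and calls in both were few over all contacts too. CDX1, an intestinal regulator, had 0 at day 14, against 1 in naive cells.

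**Figure D1:**
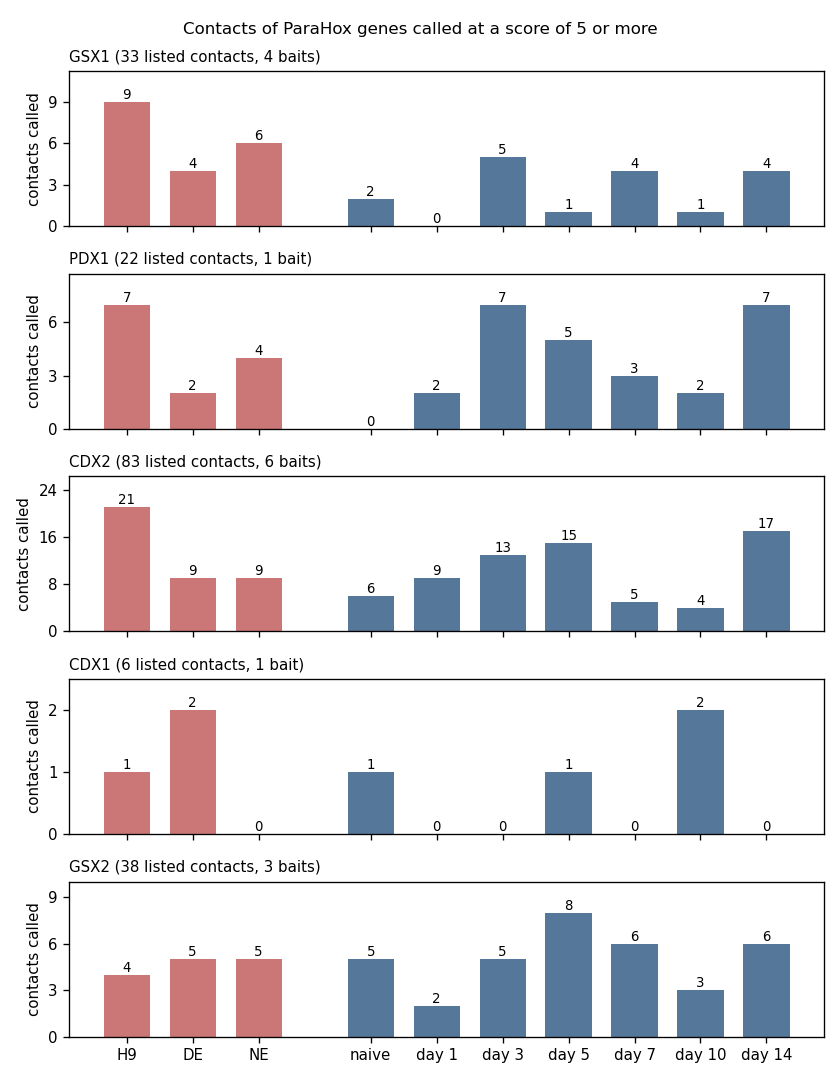
Number of contacts with a score of 5 or more (y axis) at each ParaHox gene in the 10 conditions (x axis), 1 pooled value each, with H9, DE and NE in red and the HNES1 transition in blue. CDX2 and PDX1 have 17 and 7 at day 14, against 6 and 0 in naive cells, and 4 and 2 at day 10.

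The course between these ends was uneven. From the naive state through days 1, 3, 5, 7, 10 and 14 the cluster had 8, 11, 22, 19, 10, 7 and 24 called contacts. CDX2 had 6, 9, 13, 15, 5, 4 and 17, and PDX1 had 0, 2, 7, 5, 3, 2 and 7. At this threshold days 3, 5 and 14 were thus high for both, and day 10 had about as few calls as the naive state. With the threshold at 3 the cluster had 26 at day 10, against 17 in naive cells, CDX2 19, against 13, and PDX1 7, against 1. The mean score of PDX1 was 2.25 at day 10, against 0.742 in naive cells, and that of CDX2 1.38, against 1.32. GSX1 had 2, 0, 5, 1, 4, 1 and 4 and showed no clear order. GSX2 had 5, 2, 5, 8, 6, 3 and 6, with day 5 highest, and CDX1 had 1, 0, 0, 1, 0, 2 and 0. The dip of the cluster at days 7 and 10 was larger than that of all contacts, of which 10.2% and 10.3% were called then, against 12.4% at day 3.

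Scores close to the threshold made up much of these counts. Of the 219 member scores of 5 or above, 130 lay between 5 and 6, and another 74 lay between 4 and 5. The lowest called score was 5.00 and the highest not called was 4.98. A count can therefore move by several contacts with small shifts in score. At day 14, 17 of the 24 calls of the cluster lay between 5 and 6, and 8 more contacts lay between 4 and 5. In naive cells 5 of the 8 calls lay between 5 and 6, and 4 more contacts lay between 4 and 5. With the threshold at 3, the cluster had 38 contacts at day 14, against 17 in naive cells. No contact of the cluster reached 10 in any condition.

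The comparison of H9 with day 14 asks how an established primed line compares with HNES1 cells at the end of the transition. The cluster had 32 called contacts in H9, against 24 at day 14. H9 had 25.8% of the listed contacts (interval 18.9 to 34.2), the highest share among the 10 conditions. Of the 124 contacts, 4 were called in both H9 and day 14, where 1762 of all 182303 contacts within chromosomes were. Another 28 were called in H9 alone, where 12.1% of all contacts were, and 20 at day 14 alone, where 10.3% were. CDX2 had 21 in H9, against 17 at day 14, GSX1 9 in H9, against 4 at day 14, and PDX1 7 in each. With equal numbers of top contacts, or with gene ends in place of bodies, the CDX2 difference was 0. With gene bodies widened by 5 kb, PDX1 had 13 more in H9 than at day 14. Of the linked genes, 31.5% had more called contacts in H9 than at day 14 and 24.8% had fewer. GSX2 had 4 in H9, against 6 at day 14, and CDX1 had 1 in H9, against 0 at day 14.

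DE and NE were compared with day 14, the state they were made from. In DE the cluster had 13 called contacts, against 24 at day 14, and none was called in both, where 2057 of all 182303 contacts within chromosomes were. These 13 were called in DE alone, where 15.1% of all contacts were, and the 24 at day 14 alone, where 10.1% were. NE had 17, against 24 at day 14, with 2 in common, where 2299 of all contacts were called in both. Thus 15 were called in NE alone, where 16.7% of all contacts were, and 22 at day 14 alone, where 9.98% were. The shares of the 124 listed contacts were 10.5% in DE (interval 6.23 to 17.1) and 13.7% in NE (8.74 to 20.9). Over all contacts within chromosomes DE and NE had more calls than day 14, so the cluster ran the other way. The mean score of the cluster was 1.87 in DE and 2.13 in NE, against 2.11 at day 14, so NE differed in calls but hardly in mean score.

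CDX2 had 9 called contacts in DE and 9 in NE, against 17 at day 14, and shared none with day 14 in either, where few of all contacts were shared. PDX1 had 2 in DE and 4 in NE, against 7 at day 14. GSX1 had 4 in DE and 6 in NE, against 4 at day 14. Among linked genes, 37.2% had more called contacts in DE than at day 14 and 21.4% had fewer, and 41.6% had more in NE than at day 14 and 18.9% had fewer. GSX2 had 5 in DE and 5 in NE, against 6 at day 14, and CDX1 had 2 in DE and 0 in NE, against 0 at day 14.

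Because most cluster contacts are short, contacts of up to 200 kb were also set side by side. The cluster had 95 of these, of which 30.5% were called in H9, 9.47% in DE and 13.7% in NE, against 23.2% at day 14. In naive cells 6.32% were called. Over all 78385 contacts in this range the shares were 13.4% in H9, 17.2% in DE and 18.5% in NE, against 12.5% at day 14, and 10.3% in naive cells. The order of these 5 conditions at the cluster was therefore the same within this range.

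**Figure D2:**
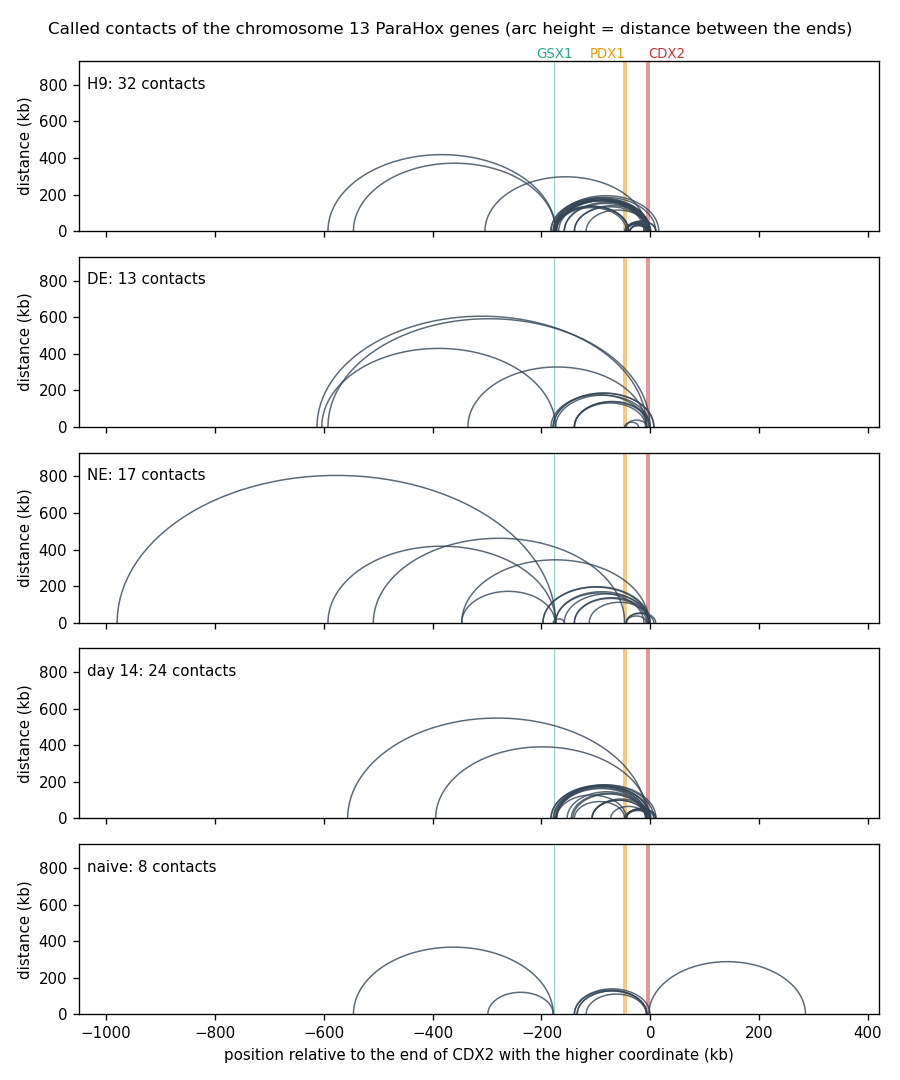
Arcs join the ends of the called contacts of GSX1, PDX1 and CDX2 in H9, DE, NE, day 14 and naive cells, with position in kb from the start of CDX2 on the x axis and distance between the ends in kb on the y axis. Bars mark the genes. Counted over all 3 genes, the panels hold 32 contacts in H9, 13 in DE, 17 in NE, 24 at day 14 and 8 in naive cells.

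CDX2 contacts pointed almost wholly to one side. Of its 83 listed contacts, 80 reached towards lower coordinates, where PDX1 and GSX1 lie, and 3 (3.61%, interval 1.24 to 10.1) towards the receptor gene FLT3, PAN3 and FLT1. With CDX2 at the bait the split was 67 and 3. Over all contacts within chromosomes 49.96% had their other end at the higher coordinate. The 3 exceptions were 1 contact in PAN3, called in naive cells, and 2 in FLT1, called at day 5. At GSX1 25 of 33 contacts (75.8%, interval 59.0 to 87.2) reached towards higher coordinates, where PDX1 and CDX2 lie. At PDX1 15 of 22 did (68.2%, 47.3 to 83.6). With the gene at the bait the numbers were 15 of 23 for GSX1 (65.2%, 44.9 to 81.2) and 5 of 9 for PDX1 (55.6%, 26.7 to 81.1). Both of these intervals include the 49.96% of all contacts. The median distance of a CDX2 contact was 157 kb, of a GSX1 contact 175 kb and of a PDX1 contact 49.4 kb. Capture baits and their placement were the same in all conditions, and their part in this asymmetry was not tested.

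The gap between GSX1 and PDX1 held more CDX2 contacts than any other stretch. This stretch took 39 of the 83 listed contacts and 52 of the 108 calls, with 9 in H9, 4 in DE and 5 in NE, against 10 at day 14. Over the transition, from naive cells through day 14, it had 5, 1, 5, 7, 4, 2 and 10. Contacts of CDX2 with PDX1 itself, 7 in all, took 13 calls, of which 4 were in H9, 1 in DE and 1 in NE, against 2 at day 14, and 0 in naive cells. The gap between PDX1 and CDX2 took 8 calls, 4 of them in H9, and the gap between POLR1D, a subunit gene of RNA polymerases I and III, and GSX1 took 14. These stretches follow the gene bodies without widening, so contacts of CDX2 with GSX1 baits beside the gene are counted in the gaps.

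Contacts that joined 2 ParaHox genes numbered 14, all within the cluster. Of these, 5 were called in H9, 2 in DE and 2 in NE, against 4 at day 14. Through the transition 0, 0, 3, 2, 2, 0 and 4 were called. The mean score over the 14 was 3.57 in H9, 2.04 in DE and 2.65 in NE, against 2.87 at day 14, and it was 0.463 in naive cells, below the 1.53 of all contacts. PDX1 and CDX2 shared 7 contacts, GSX1 and CDX2 shared 5, and GSX1 and PDX1 shared 2. No contact between ParaHox genes of different chromosomes was listed.

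Between the promoter fragments shown above, CDX2 to GSX1 over 176 kb, the score was 8.97 in H9, 1.31 in DE and 1.34 in NE, against 2.84 at day 14. It was 0.862 in naive cells, 3.43 on day 1, 1.91 on day 3, 3.04 on day 5, 2.26 on day 7 and 3.89 on day 10. This contact was therefore called in H9 and in no other condition. The CDX2 promoter bait and the PDX1 bait met over 46.6 kb with a score of 3.94 in H9, 0.806 in DE and 1.89 in NE, against 5.80 at day 14, and it was also called at day 5 (6.14). The 2 other contacts of the CDX2 promoter fragment with GSX1 came from GSX1 baits. One had 5.01 at day 14, against 0 in naive cells, and the other 5.35 in DE, against 1.56 at day 14, and each was called in that condition alone.

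A single interval overlapping PDX1 (chr13:27923393-27927182) collected more calls of the cluster than any other. It was in contact with 13 baits, of which 10 stand in or beside CDX2 and URAD, a gene of uric acid breakdown beyond CDX2, and 3 beside GSX1. Together they had 29 calls in 9 of the 10 conditions. Because the interval lies in a ParaHox gene, contacts from every bait counted, while intervals outside the genes kept only baits at the 3 genes. With CDX2 baits alone it had 10 calls from 5 baits, against 13 from 5 for an interval in the GSX1 to PDX1 gap. Of all 13 baits, those called numbered 6 in H9, 1 in DE and 3 in NE, against 5 at day 14. Over the transition, from naive cells through days 1, 3, 5, 7, 10 and 14, they numbered 0, 1, 6, 3, 2, 2 and 5. The mean score was 4.33 in H9, 2.20 in DE and 3.05 in NE, against 3.51 at day 14. It was 0.897 in naive cells, 2.15 on day 1, 3.66 on day 3, 3.73 on day 5, 2.91 on day 7 and 3.25 on day 10. Naive cells were thus the lowest condition, with 4 of the 13 baits at 0 and none above 3.16, while at day 14 the baits ranged from 0.398 to 6.51. Neighbouring baits share the same other end and are not independent. This interval was singled out for its calls, so its levels are a description. Its calls are also part of the PDX1 counts above.

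**Figure D3:**
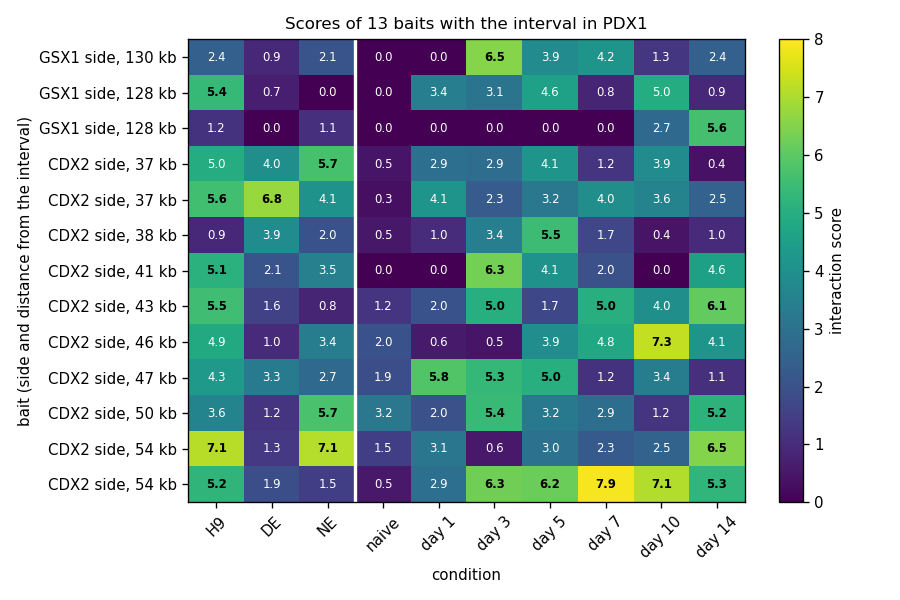
Interaction score (colour and number) of 13 baits (rows, by side and distance in kb) with the interval in PDX1 in each condition (columns), with scores of 5 or more in bold black type. The naive column is lowest, with no score above 3.16, and H9 has 6 called baits, against 5 at day 14.

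The most recurrent contact of any ParaHox gene joined this interval to a bait in URAD (chr13:27979238-27980126) over 54.4 kb and was called in 6 conditions. Its score was 5.23 in H9, 1.91 in DE and 1.48 in NE, against 5.25 at day 14. From the naive state it was 0.543, then 2.91 on day 1, 6.26 on day 3, 6.19 on day 5, 7.88 on day 7 and 7.08 on day 10. It therefore stayed above the threshold from day 3 to day 14, also at day 10, when the cluster's total was low.

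The CDX2 promoter bait met the same PDX1 interval over 43.5 kb in 4 conditions, with 5.55 in H9, 1.56 in DE and 0.831 in NE, against 6.06 at day 14. It was 1.23 in naive cells, and the other calls were at day 3 (5.02) and day 7 (5.00). Among 3 further baits called in 3 conditions each, the one next to the CDX2 start (chr13:27971248-27972437) was called at days 1, 3 and 5, with 5.81, 5.32 and 5.05. The bait at chr13:27975248-27976327 had 5.71 in NE, 5.43 at day 3 and 5.17 at day 14. A bait in URAD at chr13:27978842-27979237 had 7.13 in H9 and 7.10 in NE, against 6.51 at day 14, but 1.33 in DE and 1.48 in naive cells.

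An interval within the GSX1 to PDX1 gap (chr13:27827191-27832307) followed another course. Its nearest gene was GSX1, 32.4 kb away, and 6 baits at ParaHox genes reached it, 5 of them at CDX2 and 1 at PDX1. Baits elsewhere were not counted here. The mean score was 4.27 in H9, 3.91 in DE and 4.10 in NE, against 2.16 at day 14. Naive cells had 4.10, with single baits between 0 and 8.80, and days 1, 3, 5, 7 and 10 had 1.99, 3.54, 3.50, 2.24 and 2.36. Naive cells thus stood level with H9, DE and NE here and above day 14, unlike at the PDX1 interval, where baits outside the genes counted as well. The highest score of CDX2 belonged to this interval and the CDX2 promoter bait over 139 kb, with 9.36 in H9, 7.49 in DE and 2.66 in NE, against 1.58 at day 14. It was 6.94 in naive cells, 1.92 at day 1 and 7.07 at day 3, and stayed below 5 afterwards.

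A bait in the body of CDX2 (chr13:27962238-27962772) gave 8.80 with this interval in naive cells, the highest score of the cluster there, and 1.90 at day 14. It had 6.92 in H9 and 7.24 in NE and was called at day 3 as well (6.62). Another CDX2 bait (chr13:27966142-27967183) was called with it in DE (5.31), in NE (6.69) and at day 5 (7.88).

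Just before GSX1, 3.22 kb from the gene, an interval (chr13:27784330-27789263) was reached by 5 CDX2 baits. Its mean score was 4.30 in H9, 3.12 in DE and 3.51 in NE, against 4.32 at day 14. Naive cells had 1.45, and days 1, 3, 5, 7 and 10 had 3.89, 3.21, 3.09, 2.46 and 3.07. The CDX2 promoter bait was called with it in H9 (6.65), at day 1 (6.11) and at day 14 (6.42), with 4.80 in DE, 4.96 in NE and 0.872 in naive cells. With an interval 13.9 kb beyond GSX1 (chr13:27808699-27813831) the same bait had 8.69 in H9 and 5.54 in NE, against 0 at day 14, and was called at days 3 (5.17) and 5 (7.62). These 3 intervals were chosen for their calls as well.

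**Figure D4:**
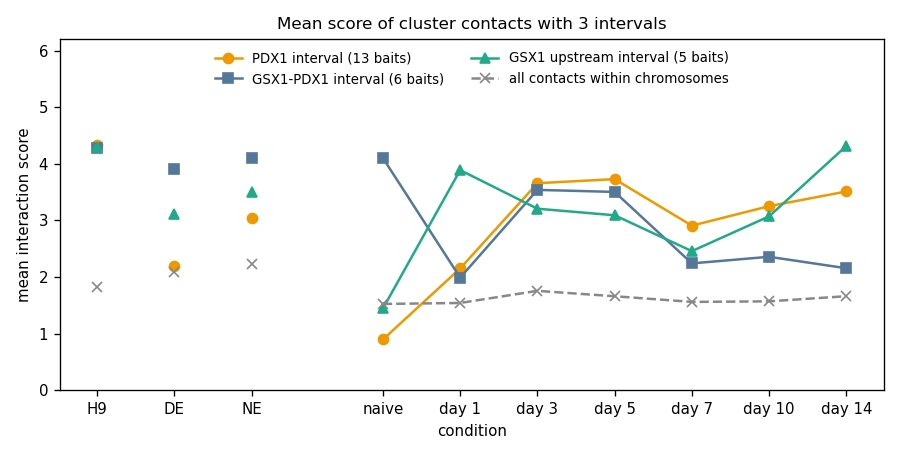
Mean interaction score (y axis) of the baits in contact with 3 intervals of the chromosome 13 cluster in the 10 conditions (x axis), with the mean of all contacts within chromosomes as crosses. For the intervals outside the genes, only baits at ParaHox genes are included. The interval in PDX1 and the one before GSX1 are low in naive cells (0.897 and 1.45), while the one in the GSX1 to PDX1 gap is high there (4.10).

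Of the 8 listed contacts of GSX1 towards lower coordinates, 5 ended at or beyond GTF3A, the gene of a transcription factor of RNA polymerase III. The farthest was 806 kb away, with 8.93 in NE and 0 in every other condition. The remaining contacts ended in or near LNX2 and POLR1D. A GSX1 bait (chr13:27795154-27795415) met an interval 418 kb away (chr13:27374380-27379468) with 5.39 in H9, 2.76 in DE and 8.70 in NE, against 0 at day 14, and with 7.69 at day 3. An adjoining bait had the highest score of GSX1, 9.69 in DE, with an interval 429 kb away, and 0 in every other condition. The interval holding the promoter of GTF3A was called from 1 GSX1 bait in naive cells (5.34) and at day 3 (7.23), and from another in H9 (7.43). For PDX1, the highest score was 8.73 at day 5, between its bait and an interval 1.12 kb from CDX2, and it was 3.00 at day 14, against 1.20 in naive cells.

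The stretch of chromosome 13 around the cluster showed how far the pattern reached beyond the genes. From 20 kb before GSX1 to 20 kb after CDX2, 41 baits had 218 listed contacts with both ends inside. Of these, 56 were called in H9, 22 in DE and 20 in NE, against 41 at day 14, and 12 were called in naive cells. In 127 of them neither end touched a ParaHox gene, and here 27 were called in H9, 13 in DE and 10 in NE, against 19 at day 14. The same 127 had 7 calls in naive cells and 14, 19, 15, 22 and 17 at days 1, 3, 5, 7 and 10. Contacts with no gene of the cluster at either end thus stayed at 17 or above at days 7 and 10, when those of the 3 genes were few.

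Of the neighbouring genes on chromosome 13, URAD had 17 called contacts in H9, 7 in DE and 6 in NE, against 12 at day 14, and 4 in naive cells. FLT3, which lies beyond URAD from CDX2, had 7 in H9, 5 in DE and 9 in NE, against 5 at day 14, and 3 in naive cells. Over the 9 neighbours (URAD, FLT3, PAN3, POLR1D, LNX2, MTIF3, GTF3A, RASL11A and USP12), 4 had more at day 14 than in naive cells, 4 fewer and 1 the same number. Their median difference was 0, as it was over all linked genes. Some contacts of URAD, 6 of 65, are also contacts of the cluster.

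GSX2, on chromosome 4 between CHIC2 and the growth factor receptor gene PDGFRA, had contacts on both sides. Of 38 listed, 22 reached towards LNX1 and CHIC2 and 16 towards PDGFRA and KIT. The gap between LNX1 and CHIC2 took 14 contacts with 19 calls, and that between GSX2 and PDGFRA 12 contacts with 17. The median distance was 150 kb. The first gap had 0 calls in H9, 4 in DE and 0 in NE, against 1 at day 14, and the second 2 in H9, 0 in DE and 1 in NE, against 3 at day 14. From naive cells through day 14 the first had 4, 1, 3, 3, 2, 1 and 1, and the second 1, 1, 1, 4, 3, 1 and 3. The second gap includes the contacts with the fragment at the start of PDGFRA, which are given again below. Calls within LNX1, a ubiquitin ligase gene, numbered 1 in H9, 1 in DE and 3 in NE, against 0 at day 14, and none was made in naive cells.

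Of the GSX2 contacts, 4 ended in the fragments that hold the RefSeq promoters of PDGFRA, 126 to 134 kb away. In H9, DE and NE none of the 4 was called, with mean scores of 2.00, 1.79 and 0.568, against 2 called and a mean of 5.00 at day 14. In naive cells and at day 1 none was called, and the mean scores were 0.538 and 0.601. On day 3 the mean was 3.98 with 1 called, on day 5 1.71 with 0, on day 7 6.44 with 3, and on day 10 3.57 with 0. Days 3, 7, 10 and 14 were thus above every other condition in mean score. These contacts were picked out after their scores were seen.

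The strongest single contacts of this group joined the interval of the promoter shown above (chr4:54226628-54229461), which reaches 169 bp into PDGFRA. From the bait over the end of GSX2 (chr4:54101331-54103370) the score was 1.37 in H9, 2.50 in DE and 0.427 in NE, against 9.09 at day 14. It was 2.15 in naive cells, 0 on day 1, 5.14 on day 3, 2.44 on day 5, 7.51 on day 7 and 4.89 on day 10. From the GSX2 promoter bait it was 0.894 in H9, 1.49 in DE and 0.567 in NE, against 3.77 at day 14, with 0 in naive cells and 9.58 at day 7. The day 14 score of this contact is therefore below the threshold, and the 2 baits peaked on different days.

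**Figure D5:**
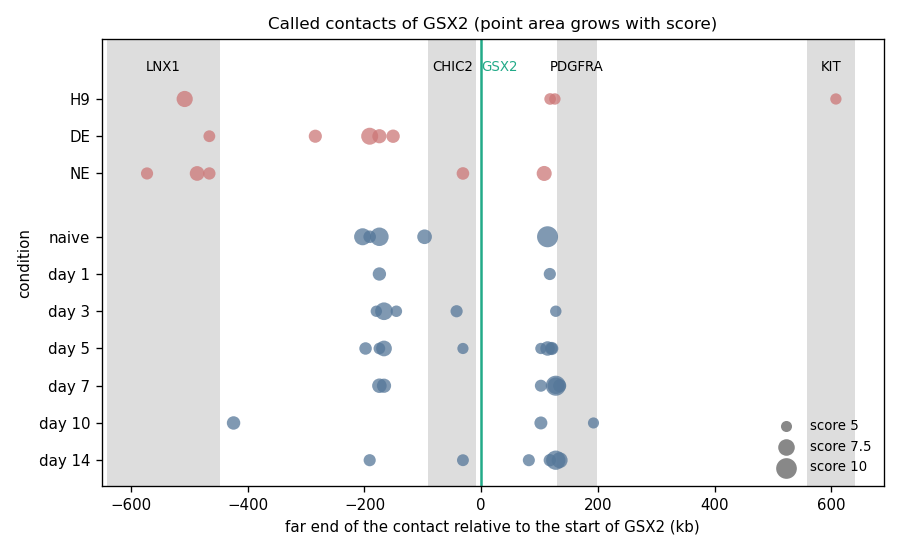
Far end of each called contact of GSX2 in kb from the start of the gene (x axis) in each condition (rows), with point area growing with the score and grey bands for LNX1, CHIC2, PDGFRA and KIT. Points in the fragments of the PDGFRA promoters appear at days 3, 7 and 14, with 1 in H9 just short of them, and points between LNX1 and CHIC2 number 4 in DE, 4 in naive cells and 1 at day 14.

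The highest score of GSX2 was 10.2, in naive cells, between the promoter bait and an interval 114 kb away and 12.7 kb short of PDGFRA (chr4:54211242-54216634). It was 0.853 in H9, 3.06 in DE and 1.21 in NE, against 2.28 at day 14, and was called again at day 5 (6.44). On the CHIC2 side, a bait beside GSX2 (chr4:54103371-54103834) met an interval 178 kb away (chr4:53923045-53928436) with 8.60 in naive cells and 5.92 at day 1, and with 2.41 at day 14. The same contact had 3.98 in H9, 6.29 in DE and 2.89 in NE. Of the 6 neighbours of GSX2 (PDGFRA, KIT, KDR, CHIC2, FIP1L1 and LNX1), 1 had more called contacts at day 14 than in naive cells, 4 had fewer and 1 had the same number, with a median difference of -1.5. Over all linked genes 29.0% had more and 25.5% fewer. PDGFRA itself had 11 in H9, 7 in DE and 12 in NE, against 6 at day 14, and 8 in naive cells.

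CDX1, with 1 bait (chr5:150166332-150167998), had 6 listed contacts and 7 calls. At day 10 that bait gave the highest score of any ParaHox gene, 11.6, with an interval 275 kb away that overlaps the ribosomal protein gene RPS14 (chr5:150439304-150444445). The same contact had 1.40 at day 5 and 0 in the other 8 conditions. The interval holding the promoter of CD74, the invariant chain of antigen presentation, was called in naive cells (5.09) and at day 10 (5.36) and had 1.42 at day 14. A bait in PDGFRB, the neighbouring growth factor receptor gene, met CDX1 over 41.1 kb with 6.73 in DE, 4.13 in H9 and 2.88 in NE, against 0.411 at day 14. The other calls were to CAMK2A in H9 (5.33), to ARHGEF37 at day 5 (5.33) and to an interval near NDST1 in DE (5.38). No condition had more than 2 calls at CDX1, so no pattern between conditions can be read.

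Of the 6 neighbours of CDX1 (PDGFRB, CSF1R, CAMK2A, SLC6A7, SLC26A2 and HMGXB3), 3 had more called contacts at day 14 than in naive cells, none had fewer and 3 had the same number. Their median difference was 0.5, against 0 over all linked genes, of which 29.0% had more and 25.5% fewer.

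Most contacts at the ParaHox genes were called in a single condition, as were most contacts in general. In the cluster these were 103 of 124 (83.1%), at GSX2 29 of 38 (76.3%) and at CDX1 5 of 6, against 85.8% of all contacts within chromosomes. Contacts called in 2 conditions made up 8.06% of the cluster and 18.4% of GSX2, against 9.55% of all. Those called in 3 made up 4.84% and 5.26%, against 2.54%, and those called in 4 made up 3.23% and 0%, against 1.00%. Where a pair of baits was listed from both ends, the 2 listings could differ in score. The GSX1 bait at chr13:27790174-27791626 and the bait at chr13:27975248-27976327 had 7.01 and 7.81 in DE. The baits at chr13:27793928-27794415 and chr13:27929184-27929394 had 7.25 and 5.68 in H9. Of the 124 cluster contacts, 119 were separate pairs.

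Partner genes of the same tissues were also counted at day 14 and in naive cells. Most had more calls than the median of 6 per linked gene, which leaves more room for a difference and fewer ties. Of 11 pancreatic partners of PDX1, 7 had more called contacts at day 14 than in naive cells, 2 fewer and 2 the same number, with a median difference of 1 against 0 over all linked genes. Of all linked genes, 29.0% had more at day 14 than in naive cells and 25.5% fewer. NKX2-2, an islet cell factor, had 30 in H9, 21 in DE and 15 in NE, against 13 at day 14, and 4 in naive cells. GATA6, which works with GATA4 in pancreas formation, had 15 in H9, 8 in DE and 6 in NE, against 8 at day 14, and 3 in naive cells. FOXA2, an endoderm pioneer factor, had 6, 9 and 10 in H9, DE and NE, against 6 at day 14, and 3 in naive cells. NEUROD1 had 2 at day 14, against 5 in naive cells. In DE 8 of the 11 had more than at day 14, 1 had fewer and 2 had the same number, while PDX1 itself had 2 in DE, against 7 at day 14. Over all linked genes 37.2% had more in DE than at day 14 and 21.4% fewer.

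Of 10 partners of CDX2 in trophectoderm and the posterior body, 9 had a contact, TBX6 having none. At day 14, 6 had more than in naive cells, 1 fewer and 2 the same number, with a median difference of 2. Over all linked genes 29.0% had more and 25.5% fewer, with a median difference of 0. HOXA9, a posterior Hox gene, had 16 in H9, 6 in DE and 7 in NE, against 20 at day 14, and 8 in naive cells. GATA3, a trophectoderm factor, had 15, 10 and 2 in H9, DE and NE, against 13 at day 14, and 9 in naive cells. EOMES, a T-box factor of endoderm and trophectoderm, had 9, 22 and 14 in H9, DE and NE, against 6 at day 14, and 3 in naive cells. TFAP2C differed most in NE, with 33, against 6 at day 14.

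Of 10 forebrain and spinal cord partners of GSX1 and GSX2, 7 had more at day 14 than in naive cells, 1 fewer and 2 the same number, with a median difference of 1. Among all linked genes 29.0% had more and 25.5% fewer, with a median difference of 0. NKX2-1, a ventral forebrain factor, had 7 in H9, 1 in DE and 1 in NE, against 12 at day 14, and 0 in naive cells. ISL1, a LIM homeodomain factor of motor neurons, had 33, 39 and 37 in H9, DE and NE, against 36 at day 14, and 10 in naive cells. In NE 6 of the 10 had more than at day 14, 3 fewer and 1 the same number, where 41.6% of all linked genes had more and 18.9% fewer. NKX2-1 was among those with fewer. OLIG2, which marks motor neuron progenitors, had 9 in NE, against 2 at day 14, and 6 in naive cells.

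Among genes with at least 10 calls and no contact in common with the cluster, KLHL10 (Pearson's r 0.959), WNT6 (0.958) and LHX6 (0.925) had the most similar numbers of called contacts over the 10 conditions. WNT6, a secreted WNT ligand, had 14 in H9, 3 in DE and 6 in NE, against 9 at day 14, and 2 in naive cells. LHX6, a LIM homeobox gene of cortical interneurons, had 11, 6 and 6 in H9, DE and NE, against 7 at day 14, and 1 in naive cells. For CDX1 the nearest were ARHGAP35 (0.859), PYGO1 (0.852) and RAB20 (0.842), and for GSX2 MT1F (0.834), SPARC (0.831) and IRX3 (0.825). These are the best of the 5555, 5561 and 5558 genes ranked for the cluster, CDX1 and GSX2, over 10 pooled values that share their libraries, and are given as a description.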

How the data were processed

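The authors made 20 Poised Enhancer Capture Hi-C libraries with DpnII digestion and a custom capture, per the labels' protocols. They deposited 1 table with a CHiCAGO interaction score per contact and condition, pooling 2 libraries, and a distance in bp (another unit than the score). Coordinates were on GRCh38, per the submitters' processing notes. Read depth is unknown, and which aligner, caller version and settings were used is not given in the sources used here.

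Contacts within chromosomes were linked to 14258 of 20033 protein-coding genes (RefSeq, GRCh38.p14) by overlap with the gene body widened by 1 kb, and called at a score of 5 or more. Named were all members, contacts called in 3 or more conditions, contacts between members, each member's highest contact, the 3 genes most alike in calls, and 7 gene lists. The values of 1 listed gene are not reported here. RefSeq promoters matched 3 of the 5 members. The members and lists were chosen with earlier results of these data known. Linking, thresholds and likeness were tested on simulated data. Software was Python 3.11.15, statsmodels 0.14.6, pandas 2.3.3, numpy 2.4.6 and matplotlib 3.10.9. The differences in called contacts of the cluster and of each gene were recomputed under 11 alternatives, and those of the singled-out intervals under 4. Time courses, mean scores, sides and gene lists were not. The alternatives changed the threshold, the scaling between conditions, the counting of bait pairs, the gene link or the inclusion of other chromosomes.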

Additional observations from a re-analysis of the deposited data

How the results depend on the processing

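The values here are differences in called contacts, first condition minus second. For the cluster, day 14 minus naive was 16, and it stayed positive and within 1.5 times that value in 9 of 11 alternatives. It was 0 at a score of 10 and 27 with contacts between chromosomes. At a score of 10 all differences of the cluster, CDX1 and GSX2 were 0, except -1 for GSX2 in day 14 minus naive, because almost no member reaches that score. H9 minus day 14 (8) was 18 at a score of 3, 4 with equal numbers of top contacts, 5 with quantile-normalised scores, 5 with the other condition under a score of 4 and 13 with genes widened by 5 kb. DE minus day 14 (-11) was -7 with gene ends in place of bodies, and turned to 56 with contacts between chromosomes. NE minus day 14 (-7) was -3 at a score of 3, -11 with equal numbers of top contacts, -11 with quantile-normalised scores, -2 without bait-to-bait contacts and -4 with gene ends, and turned to 46 with contacts between chromosomes. Those contacts also turned CDX2 (27 for DE, 28 for NE) and PDX1 (3 for DE, 1 for NE), and widening by 5 kb turned GSX1 in NE (-6, reported value 2). The same widening gave 18 for GSX1 in day 14 minus naive (reported value 2), -10 for GSX1 in DE (0) and 13 for PDX1 in H9 (0). CDX2 in H9 (4) was 0 with equal numbers of top contacts or gene ends. In DE and NE contacts between chromosomes were many everywhere. The cause was not tested.

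CDX1 rests on 7 calls. Its day 14 minus naive value (-1) was -2 with contacts between chromosomes, H9 minus day 14 (1) was 2 at a score of 3 and 4 with contacts between chromosomes. DE minus day 14 (2) was 1 with equal numbers of top contacts, quantile-normalised scores or gene ends and 9 with contacts between chromosomes. NE minus day 14 (0) was 1 with widening by 5 kb and 7 with contacts between chromosomes. GSX2 had no stable direction. Day 14 minus naive (1) was 2 at a score of 3, 0 without bait-to-bait contacts or without widening, and -1 with contacts between chromosomes. H9 minus day 14 (-2) was -1 at a score of 3 and with the other condition under 4, -5 with equal numbers of top contacts, -4 with quantile-normalised scores, 4 with widening by 5 kb and 2 with contacts between chromosomes. DE minus day 14 (-1) was 1 at a score of 3, -2 with equal numbers of top contacts, quantile-normalised scores or no widening, 0 without bait-to-bait contacts or with widening by 5 kb, and 17 with contacts between chromosomes. NE minus day 14 (-1) was -3 at a score of 3, -4 with equal numbers of top contacts, -3 with quantile-normalised scores, 0 without bait-to-bait contacts, without widening or with widening by 5 kb, and 13 with contacts between chromosomes.

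For the intervals singled out, 4 alternatives were added after seeing the data. At the PDX1 interval day 14 minus naive was 5 and lay between 0 (at a score of 10) and 6, and H9 minus day 14 (1) turned to -1 with equal numbers of top contacts. No paired analysis was possible because each condition has 1 column that pools both libraries. For the same reason no replicate could be left out.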

Other observations

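CDX4, the remaining human CDX gene, lies on the X chromosome and had 9 listed contacts within it. It had 1 called contact in H9, 1 in DE and 1 in NE, against 0 at day 14, and 0, 3, 1, 0, 1, 1 and 0 from naive cells through day 14, so no course can be read at these numbers.

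Contacts of the cluster with other chromosomes numbered 255 in the table. Of these, 19 were called in H9, 85 in DE and 71 in NE, against 18 at day 14, and 7 in naive cells. Over all contacts between chromosomes the numbers were 38446 in H9, 187492 in DE and 155291 in NE, against 31432 at day 14, and 29766 in naive cells. PDX1 had 8 of these in DE and 4 in NE, against 0 at day 14, and CDX2 had 46 and 47, against 11 at day 14. DE and NE thus had more contacts of the cluster between chromosomes and fewer within chromosome 13 than day 14 had, and the excess between chromosomes was shared by all contacts.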
